A study of Mus musculus with 6 samples.

Results

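The complement genes of liver ECs were examined as a group of 32 genes, chosen by symbol from the 24421 gene symbols of the count table and not by any measured value. All 32 had a count and an FPKM, a level scaled to transcript length and library size. They comprised 5 genes of the classical pathway (C1ra, C1s, C2, C4a and C4b), 4 of the lectin pathway (Masp1, Masp2, Mbl1 and Mbl2), 4 of the alternative pathway including its shared component C3 (C3, Cfb, Cfd and Cfp), 7 of the terminal pathway (Hc, C6, C7, C8a, C8b, C8g and C9), 4 regulators in the fluid phase (Serping1, C4bp, Cfi and Clu), 5 regulators on membranes (Cd55, Cd59a, Cd59b, Cd46 and Cr1l) and 3 receptors (Cd93, C3ar1 and C5ar1). C1s is listed in the count table as C1s1.

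The ECs came from the livers of C57BL/6J mice of WT genotype, 3 young mice of 10 weeks and 3 aged mice of 127, 131 and 136 weeks. They were sorted as CD31+CD45- cells, 50000 per mouse, a sort that keeps cells with the endothelial protein CD31 and discards cells with CD45, a protein of leukocytes. The study used female mice and left out animals with visible tumors or an enlarged liver or spleen, without a pathological examination. The 6 mice are independent samples, and the aged mice are named here by their age in weeks. Total counts ran from 23001556 to 31651817 per mouse, so that 3 counts stood for 0.0947 to 0.135 CPM (counts relative to the library total, scaled between libraries with TMM), which covers counting error only. Lars2 and Rn45s, symbols that collect ribosomal RNA reads, took 1.29% of the counts in young mouse 3 and 0.960% in the 127-week mouse and 4.68% to 5.53% in the other 4, a split that crosses age. Of 10 endothelial markers none was at 0 in any mouse, but their summed CPM was 20057 to 21658 in young and 11841 to 16370 in aged mice. Of these markers 7 had a log2 fold change below 0 and 3 an unadjusted p below 0.05 (Stab2 at -1.70, Clec4g at -1.46 and Kdr at -0.65), all 3 lower, whereas Pecam1, which encodes CD31, stood at 1444 ± 126 CPM in young and 1459 ± 153 CPM in aged ECs (SD, n = 3 per age). RNA from other cell types was also present. The summed CPM of 15 hepatocyte markers was 152 to 211 in young and 96.3 to 127 in aged mice, and that of 8 Kupffer cell and monocyte markers was 44.8 to 87.6 in young mice and 188, 30.7 and 462 in the 127-, 131- and 136-week mice. That of 10 stellate cell, fibroblast and mural cell markers was 138 to 507 in young mice and 458, 216 and 724 in the aged mice in the same order.

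Complement is a cascade of plasma proteins that tags particles for uptake, attracts leukocytes and punctures membranes. The classical pathway starts from antibody through C1q, C1r and C1s, the lectin pathway from sugar-binding lectins and their MASP proteases, and the alternative pathway from spontaneous turnover of C3 with factor B. All 3 pathways converge on the cleavage of C3, after which C5 (encoded by Hc in the mouse) to C9 assemble the membrane attack complex. Hepatocytes secrete most of the plasma components, whereas host cells, ECs among them, carry membrane proteins such as CD55 and CD59 that stop the cascade on their own surface.

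The genes fell into a well-expressed set and a low set. With a mean FPKM over all 6 mice of at least 5 as the limit, 12 genes were well expressed (Cd59a, Cd55, Clu, Cr1l, Masp1, Serping1, Cd93, C1ra, Cfb, C3, C2 and Cfp) and 20 were low. Just above the limit lay Cfp, at 6.23, and just below it C1s, at 4.03. The membrane regulators Cd59a and Cd55 led, at a mean FPKM of 323 and 273, which put them at ranks 260 and 322 of 24346 symbols. Next came Clu at 212, Cr1l at 96.9, Masp1 at 93.7, Serping1 at 72.4 and Cd93 at 54.0 FPKM, of which only Masp1, a protease of the lectin pathway, belongs to the cascade itself. A list of 18 of the genes was drawn up as textbook hepatocyte genes, and it leaves out Clu, Masp1 and Serping1. C1ra (31.1), Cfb (24.8), C3 (22.2) and C2 (14.8) were the best expressed within that list. Its other 14 genes were in the low set, between 0.0177 and 4.03 FPKM. The plot of FPKM by pathway shows this order.

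**Figure D1:**
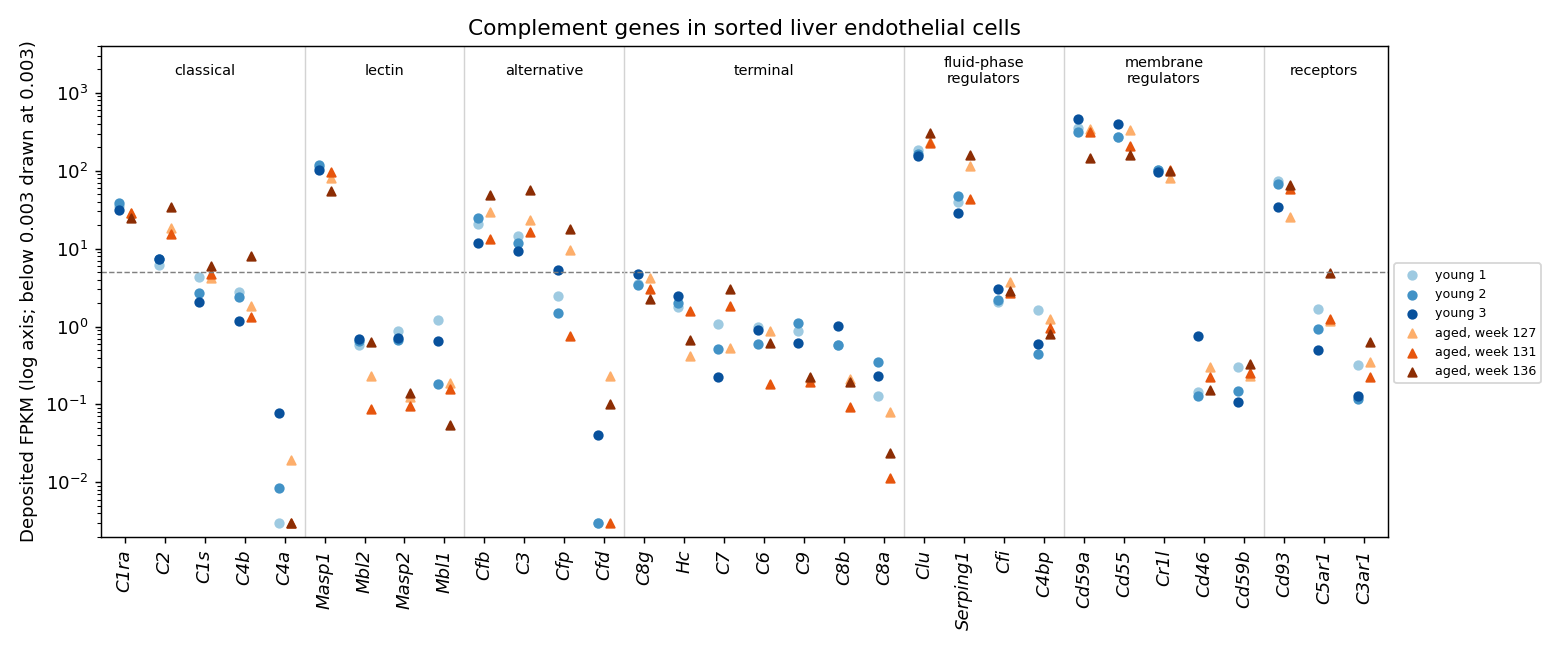
Deposited FPKM (log axis) of the 32 complement genes in each mouse, grouped by pathway, with circles for young and triangles for aged mice. The dashed line marks the limit of 5. The membrane regulators Cd59a, Cd55 and Cr1l, Clu and Masp1 lie near or above 100, whereas all 7 terminal pathway genes have a mean below the line.

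Promoters were looked up to place the genes whose ages were furthest apart. Of the 32 genes, 23 had a promoter in the RefSeq table used here (GRCm38.p6), and C2, C4a, C4b, Cfb, Cfi, Cd93, Masp1, Serping1 and Clu had none. The 250 bases before the start site are shown for C3, which was higher in aged ECs, and for the terminal pathway genes Hc, C8a, C8b and C9, which were lower. They lie at chr17:57228137-57228386 (C3, minus strand), chr2:35061413-35061662 (Hc, minus), chr4:104876399-104876648 (C8a, minus), chr4:104766067-104766316 (C8b, plus) and chr15:6445096-6445345 (C9, plus). Capitals mark matches, on either strand, to a C/EBP motif (TTGCNNAA) in C3 and C9, an HNF1 motif (GTTAATNAT) in Hc and a GAS motif bound by STAT factors (TTCNNNGAA) in C8a. Motifs were chosen after the expression values were seen.
C3: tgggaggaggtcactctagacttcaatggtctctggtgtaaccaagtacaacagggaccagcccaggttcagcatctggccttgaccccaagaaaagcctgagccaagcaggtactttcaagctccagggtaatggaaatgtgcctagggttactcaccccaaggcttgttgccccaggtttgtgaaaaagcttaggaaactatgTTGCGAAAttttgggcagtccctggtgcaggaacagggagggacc
Hc: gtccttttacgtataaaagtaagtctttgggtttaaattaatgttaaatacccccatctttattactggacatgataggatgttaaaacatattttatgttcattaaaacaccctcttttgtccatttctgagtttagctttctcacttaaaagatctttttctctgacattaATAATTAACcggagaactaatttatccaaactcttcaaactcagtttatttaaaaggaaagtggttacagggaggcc
C8a: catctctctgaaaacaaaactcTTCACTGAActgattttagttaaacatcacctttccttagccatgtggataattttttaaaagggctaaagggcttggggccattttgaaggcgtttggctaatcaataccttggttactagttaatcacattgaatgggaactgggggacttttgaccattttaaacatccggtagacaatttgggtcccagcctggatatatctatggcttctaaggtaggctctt
C8b: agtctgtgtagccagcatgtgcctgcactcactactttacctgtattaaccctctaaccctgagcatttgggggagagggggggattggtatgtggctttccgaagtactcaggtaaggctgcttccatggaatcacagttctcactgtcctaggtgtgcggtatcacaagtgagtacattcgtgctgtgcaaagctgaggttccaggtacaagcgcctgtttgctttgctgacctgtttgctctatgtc
C9: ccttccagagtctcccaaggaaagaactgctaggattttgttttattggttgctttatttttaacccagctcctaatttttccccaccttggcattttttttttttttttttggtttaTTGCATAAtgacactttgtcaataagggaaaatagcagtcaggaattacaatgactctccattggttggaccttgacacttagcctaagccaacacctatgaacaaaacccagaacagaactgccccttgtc

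C/EBP factors and HNF1 are regulators known from hepatocyte genes, and STAT factors act downstream of cytokine receptors. Counted from the start site, the match began at position -45 in C3, -132 in C9, -77 in Hc and -228 in C8a. C8b had no match to any of the 6 motifs searched, which also included an ISRE (GAAANNGAA), an NF-kB (GGGANTTCC) and an HNF4 motif (CAAAGTCCA). Over the whole windows of the table, which also take in the first bases after the start, 4 of the 23 promoters matched GAS, 4 ISRE, 4 C/EBP and 2 HNF1 (Hc and C4bp), and 0 matched NF-kB or HNF4. Among all 32851 promoters in the table the shares were 8.3% for GAS, 8.56% for ISRE, 10.8% for C/EBP, 0.801% for HNF1, 1.68% for NF-kB and 0.475% for HNF4. GAS and ISRE can overlap each other, and a match is a run of letters, not a shown binding site.

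The question for these genes was whether their expression differed between young and aged liver ECs. The genes that were higher in aged ECs were well expressed, namely C2, C3, Serping1 and Clu, whereas most of those that were lower were low genes of the terminal and lectin pathways, namely C9, C8b, C8a, Hc and Mbl1, together with Masp1 and C1ra. All of these rest on unadjusted p-values. Of the 32 genes, 30 had enough counts to be tested, while Cd59b and Cfd did not. After adjustment over all 14612 genes tested, edgeR's quasi-likelihood test called 0 of the 30, and 0% of all genes tested. The smallest adjusted p among the 30 was 0.193, for C2. By the same test, 4 of 30 were higher at an unadjusted p below 0.05, against 8.32% of all genes tested, and 7 of 30 were lower, against 4.32%. The first count was 3 to 7 and the second 2 to 4 when any 1 mouse was left out, where the same rules took 5.10% to 10.6% and 2.37% to 6.09% of all genes tested. Of the 7 lower genes, C8b, C8a and Mbl1 passed the filter on low counts only through the young mice, in which they are high, and C9 reached it in aged ECs in the 127-week mouse alone. The count of 7 is therefore a description and not support for a direction of the group.

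Other ways of counting used the same mice and the same filter on low counts, so a similar split in them is no further support. The 3 aged mice lay above the 3 young mice in 3 of 30 genes (C2, C3 and Clu), close to the 9.62% of all genes tested. They lay below the young mice in 7 of 30 (C9, C8b, C8a, Hc, C1ra, Masp1 and Masp2), where the share of all genes tested was 8.33%. DESeq2, run as an alternative, called 3 genes higher at an adjusted p below 0.05 (C2 at 9.32e-05, Serping1 at 0.0303 and C3 at 0.0360) against 3.46% of its genes, and 2 lower (C9 at 0.0226 and C8b at 0.0333) against 1.11%, and gave Mbl1 and C4a no adjusted p. Neither limma-voom, which called 0.103% of all genes tested, nor limma on log2(FPKM + 0.1), which called 0%, called any of them. The published tables of genes that differ with age, made from these same mice, contain C2 and C9, so their direction is not independent evidence.

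The median log2 fold change (aged against young) was -0.19 over the 30 tested genes, and 13 lay above 0 and 17 below it, whereas the median over all genes tested was 0.0098. It was 0.27 over the 12 well-expressed genes, of which 4 were higher and 2 lower at an unadjusted p below 0.05. It was -0.38 over the 18 low genes tested, of which 0 were higher and 5 lower by that rule. Of all genes tested, 8.32% were higher and 4.32% lower by it. Of the 5 lower low genes, 3 (C8a, C8b and Mbl1) passed the filter on low counts only through the young mice. Genes on the list of textbook hepatocyte genes stood on both sides. The 14 low ones had a median of -0.98, with 5 lower, and the 4 well-expressed ones (C1ra, C2, C3 and Cfb) a median of 1.06, with 2 higher and 1 lower. These medians are descriptions without a test, and their signs were not stable. With a filter of at least 1 CPM in 3 samples the median was 0.31 both over the tested and over the low genes. Cfp reached the limit of 5 FPKM only through its aged mean, and with a limit of 10 FPKM, which leaves it out, the median of the well-expressed genes was -0.080. The plot of log2 fold changes shows the 30 genes in order.

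**Figure D2:**
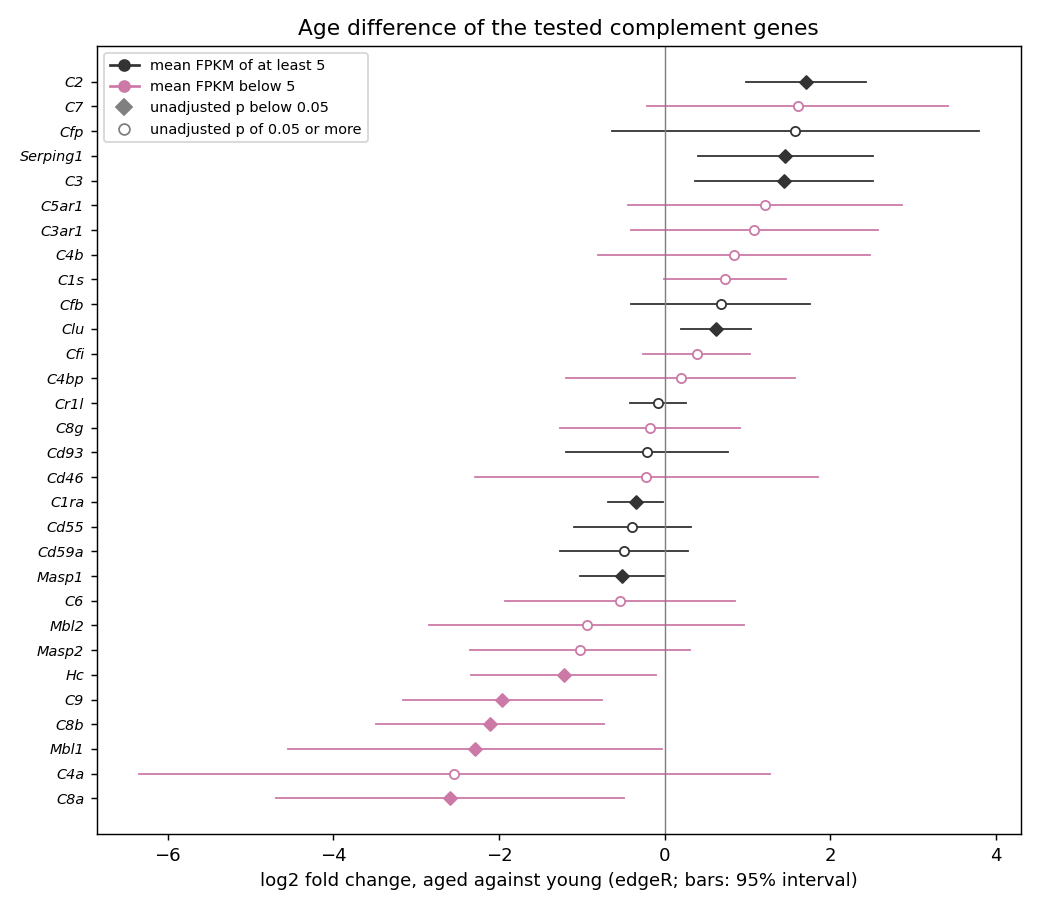
Log2 fold change of CPM (aged against young, edgeR) with its 95% interval for the 30 tested complement genes, in dark for a mean FPKM of at least 5 and in pink below it. Filled diamonds mark an unadjusted p below 0.05. C2 lies highest at 1.71, C8a lowest at -2.59, and 0 of the 30 genes pass the adjusted threshold.

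In the classical pathway, C2 and C1ra differed in opposite directions. C2 encodes the protease subunit of the classical and lectin C3 convertase. Its CPM was 15.9, 18.6 and 18.3 in young mice 1, 2 and 3 and 46.6, 38.8 and 87.0 in the 127-, 131- and 136-week mice. Every aged mouse was well above every young mouse, and the young mice lay close together. The log2 fold change was 1.71 (standard error 0.31, unadjusted p = 0.000729, adjusted p = 0.193), a 3.26-fold difference. Without the 136-week mouse, which was the highest, it was 1.28. C2 kept an unadjusted p below 0.05 in all 6 fits that left out 1 mouse.

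C1ra encodes C1r, the protease that activates C1s. The CPM of C1ra was 93.0, 102 and 80.9 in young and 74.9, 75.3 and 66.6 in aged ECs. The groups did not overlap, but the difference was small, with a log2 fold change of -0.35 (standard error 0.14, unadjusted p = 0.0435, adjusted p = 0.379), and only 1 of 6 fits without a mouse kept an unadjusted p below 0.05. C1s, its substrate, stood at 8.50 ± 3.32 CPM in young and 14.1 ± 2.60 CPM in aged ECs (SD, n = 3 per age), and the ages overlapped (log2 fold change 0.73, standard error 0.31, adjusted p = 0.399). The C4 gene C4b, which encodes the substrate of C1s, reached 44.1 CPM in the 136-week mouse but 10.0 and 7.08 in the other aged mice, against 6.12 to 15.1 in young mice. C4a, its near copy, had 19 counts in young mouse 3 and 0 to 3 counts in every other mouse, so that no difference was detectable at this depth.

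Several of these genes share sequence with neighbours. C4b, C4a, Cfb and C2 lie in this order on chromosome 17 (mm9, chr17:34865325-34880827, chr17:34946037-34960409, chr17:34993319-34999463 and chr17:34999549-35035397, all on the minus strand). Of all 75-base stretches of their transcripts, 44.0% of C2 and 71.5% of Cfb also occur in Gm20547, 23.1% of C4b occur in C4a, and 33.6% of C1ra occur in C1rb. How the authors' counting shared such reads is not given in the sources used here, so counts of these genes are uncertain to that extent.

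All 4 lectin pathway genes had a log2 fold change below 0. Of these, 2 had an unadjusted p below 0.05, against 4.32% of all genes tested that were lower by this rule. Mbl1, which is 1 of the 2, passed the filter on low counts only through the young mice. Masp1 encodes a protease that is activated on mannose-binding lectins, and its CPM was 309, 327 and 295 in young and 229, 268 and 154 in aged ECs. It was the only well-expressed gene of this pathway, and its aged values all lay below the young ones. The log2 fold change was -0.51 (standard error 0.22, unadjusted p = 0.0469, adjusted p = 0.387), and -0.32 without the 136-week mouse, where the unadjusted p was 0.0829. Only 1 of the 6 fits that left out a mouse kept an unadjusted p below 0.05. The lectin Mbl1 had 24, 3 and 15 counts in young and 4, 3 and 1 in aged mice, which overlap (log2 fold change -2.29, standard error 0.97, unadjusted p = 0.0479, adjusted p = 0.390). It kept an unadjusted p below 0.05 in 1 of 5 fits without a mouse and was not tested without young mouse 1. Mbl2, the other mannose-binding lectin, had 13 to 19 counts in young and 2 to 14 in aged mice, with an adjusted p of 0.701.

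Masp2 encodes the protease that cleaves C4 and C2. It gave 1.00, 0.812 and 1.23 CPM in young and 0.653, 0.311 and 0.528 CPM in aged ECs, without overlap (log2 fold change -1.02, standard error 0.57, unadjusted p = 0.111, adjusted p = 0.517). The size of its difference depended on the table. The log2 ratio of mean FPKM was -2.65, against -1.03 for mean CPM, the largest gap of the 30 tested genes. Of its 3307 annotated exonic bases, 1817 also belong to Tardbp, and the part of this overlap in the gap was not tested. For most other genes both tables gave nearly the same ratio, as the plot of the 2 ratios shows.

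**Figure D3:**
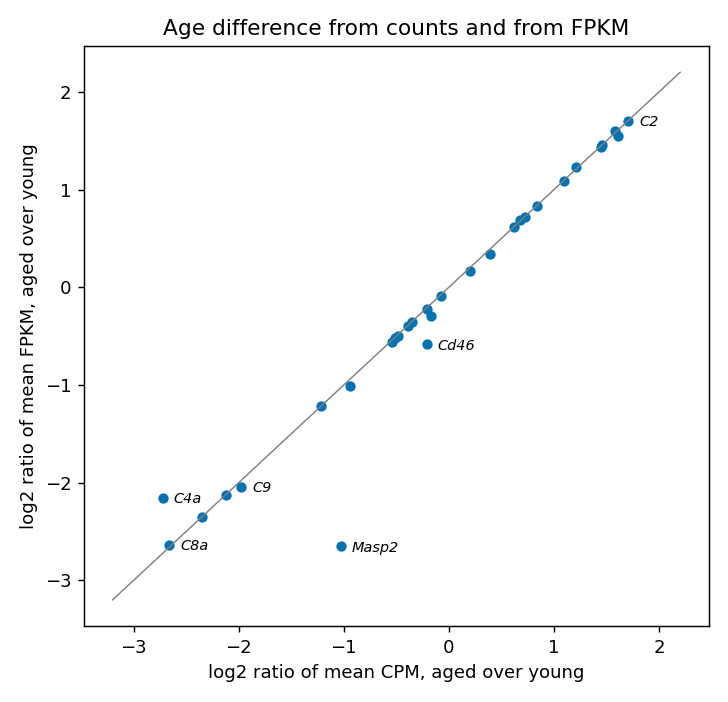
Log2 ratio of the mean FPKM against the log2 ratio of the mean CPM (aged over young) for the 30 tested complement genes, with the line of equality. Masp2 lies far below the line (-2.65 against -1.03), and Cd46 and C4a, both with few counts, lie off it by less.

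The alternative pathway genes that could be tested all had a log2 fold change above 0, and C3 had an unadjusted p below 0.05. C3, the central component of all pathways, had 75.0, 61.3 and 46.2 CPM in young and 119, 83.6 and 294 CPM in aged ECs. Its ages did not overlap, but the 136-week mouse was far above the other 2 aged mice. The log2 fold change was 1.45 (standard error 0.46, unadjusted p = 0.0151, adjusted p = 0.303), a 2.73-fold difference, and 0.74 without the 136-week mouse, where the unadjusted p was 0.0249. Of the 6 fits that left out a mouse, 5 kept an unadjusted p below 0.05.

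Cfb encodes factor B, the protease subunit of the alternative C3 convertase. The ages overlapped in Cfb, at 55.2, 65.8 and 32.1 CPM in young and 79.4, 35.7 and 130 CPM in aged ECs (log2 fold change 0.68, standard error 0.46, adjusted p = 0.605). Cfp encodes properdin, which stabilises that convertase and is known from myeloid cells. Its CPM was 3.39, 2.12 and 7.48 in young and 13.3, 1.09 and 24.5 in aged ECs, so that the 131-week mouse was the lowest of all 6 and the 136-week mouse the highest (log2 fold change 1.58, standard error 0.95, adjusted p = 0.552, and 0.73 without the 136-week mouse). The summed Kupffer cell and monocyte markers were likewise lowest in the 131-week and highest in the 136-week mouse, and their part in this pattern was not tested. Cfd, the protease that activates factor B, was at 5 counts or fewer in every mouse.

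**Figure D4:**
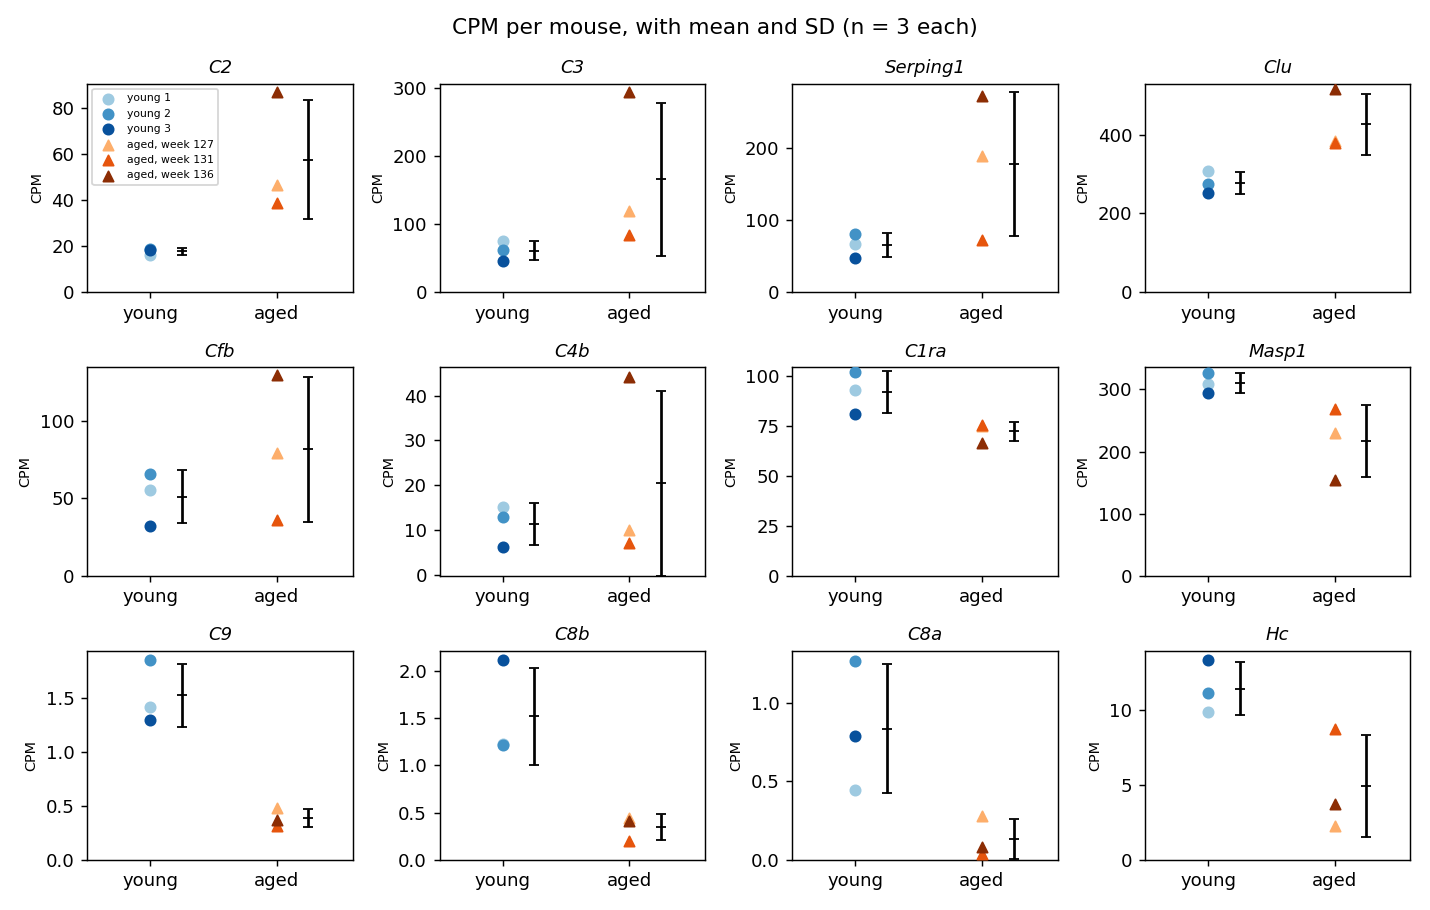
CPM (linear axes, each with its own range) of 12 complement genes in each mouse, with the mean and SD of each age (n = 3) as bars to the right of the points. C2, C3 and Clu lie higher in every aged than in every young mouse, Serping1, Cfb and C4b overlap, and C1ra, Masp1, C9, C8b, C8a and Hc lie lower in every aged mouse.

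The terminal pathway had the most genes lower in aged ECs. Of its 7 genes, 4 were lower at an unadjusted p below 0.05, against 4.32% of all genes tested. A log2 fold change below 0 was found in 6 of 7 (median -1.22), against 7150 of the 14612 genes tested. All 7 genes of the pathway were low genes. C9, which forms the ring of the membrane attack complex, had 38, 41 and 41 counts in young and 14, 8 and 9 in aged mice, which is 1.41, 1.85 and 1.29 CPM against 0.481, 0.311 and 0.366. C8b, a chain of C8, had 33, 27 and 67 counts in young and 13, 5 and 10 in aged mice. In both genes the groups were clearly apart, with every aged mouse below every young one. The log2 fold change was -1.96 for C9 (standard error 0.51, unadjusted p = 0.00592, adjusted p = 0.250) and -2.11 for C8b (standard error 0.59, unadjusted p = 0.00815, adjusted p = 0.256), which are 3.89-fold and 4.31-fold differences. Both kept an unadjusted p below 0.05 in all 6 fits without a mouse. However, C8b passed the filter on low counts only through the young mice. C9 reached it in aged ECs in the 127-week mouse alone. These fits are therefore no further support for a direction.

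C8a, the other large chain of C8, had 12, 28 and 25 counts in young and 8, 1 and 2 in aged mice (log2 fold change -2.59, standard error 0.90, unadjusted p = 0.0221, adjusted p = 0.332). Its aged values were all lower, and 2 of them were at or below the floor of 3 counts. C8a, too, passed the filter on low counts only through the young mice. An unadjusted p below 0.05 remained in 3 of 6 fits that left out a mouse, and the log2 fold change was -3.69 without the 127-week mouse. Hc, which encodes C5, was the gene of this group with the most counts, and had 9.83, 11.1 and 13.3 CPM in young and 2.27, 8.75 and 3.70 CPM in aged ECs. Its groups did not overlap, but the 131-week mouse came close to the young ones (log2 fold change -1.22, standard error 0.48, unadjusted p = 0.0362, adjusted p = 0.368), and 1 of 6 fits without a mouse kept an unadjusted p below 0.05, the one without the 131-week mouse, at a log2 fold change of -1.94. The neighbouring genes C8a and C8b are on chromosome 4 (mm9, chr4:104488284-104549003 and chr4:104438922-104477153). C7, the first of the complex to insert into membranes, was the exception in direction, with 1.60 ± 1.17 CPM in young and 4.87 ± 3.48 CPM in aged ECs (SD, n = 3 per age, log2 fold change 1.61, adjusted p = 0.452). C6 (log2 fold change -0.54, adjusted p = 0.772) and C8g (-0.17, adjusted p = 0.930) had ages that overlapped.

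Hepatocyte markers also had lower values in aged ECs. All 15 markers had a log2 fold change below 0, with a median of -0.84. Of them 6 had an unadjusted p below 0.05, against 4.32% of all genes tested that were lower by this rule. None of the 15 was at 0 in any mouse. Alb, which encodes albumin, was at 58.1 ± 17.2 CPM in young and 41.5 ± 4.62 CPM in aged ECs (SD, n = 3 per age), and its ages overlapped. The part of hepatocyte RNA in the low complement genes was not tested, and in bulk RNA fewer cells of a type and less RNA per cell cannot be told apart. Of the 18 genes on the list of textbook hepatocyte genes, 11 had a log2 fold change below 0, C1ra among them. The other 7, with C2, C3 and Cfb among them, lay above 0.

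**Figure D5:**
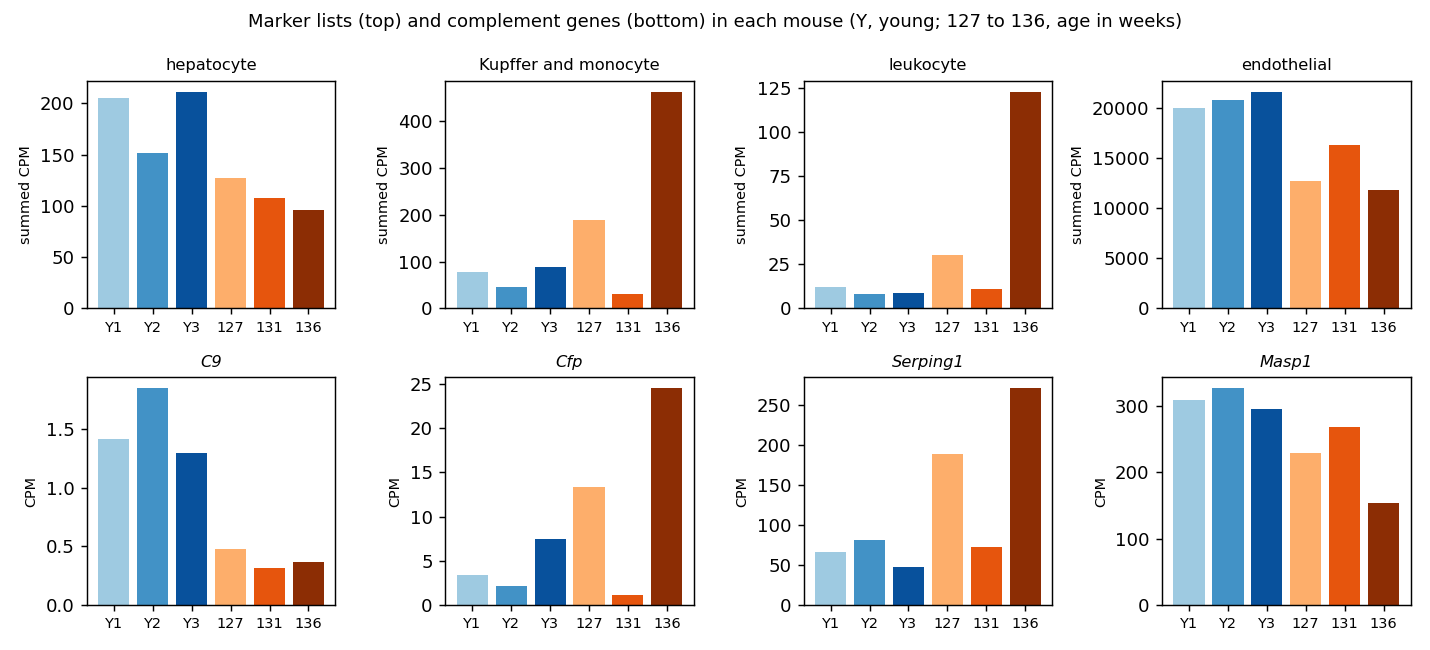
Summed CPM of 4 marker lists (top) and CPM of 4 complement genes (bottom) in each mouse, with Y for young and the age in weeks for aged mice. Hepatocyte markers and C9 are lower in every aged mouse, and Kupffer cell and leukocyte markers, Cfp and Serping1 are highest in the 136-week mouse.

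The 4 regulators of the fluid phase all had a log2 fold change above 0. Of these, 2 had an unadjusted p below 0.05, against 8.32% of all genes tested that were higher by this rule. Serping1 encodes C1 inhibitor, which blocks C1r, C1s and the MASP proteases. Its CPM was 66.1, 80.7 and 47.2 in young and 189, 72.7 and 271 in aged ECs. The 127- and 136-week mice stood well above all young mice, and the 131-week mouse lay within the young range. The log2 fold change was 1.46 (standard error 0.45, unadjusted p = 0.0135, adjusted p = 0.295), a 2.75-fold difference, and 1.02 without the 136-week mouse. Serping1 kept an unadjusted p below 0.05 in all 6 fits without a mouse. Among the aged mice Serping1, C3, Cfb, C2, Clu, C4b and Cfp were lowest at 131 and highest at 136 weeks. The summed stellate cell, fibroblast and mural cell markers and the summed Kupffer cell and monocyte markers had the same order. In the first sum Reln was the largest part (351, 109 and 496 CPM at 127, 131 and 136 weeks). Dcn and Lrat had its order, and the other markers of that list were lowest at 127 weeks. In the second sum Lyz2 was the largest part at 136 weeks (327 of 462 CPM), and all markers but Clec4f and Marco had this order. The part of such cells in these values was not tested.

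Clu encodes clusterin, which binds the forming membrane attack complex and is also a secreted chaperone. Its CPM was 307, 274 and 252 in young and 383, 379 and 517 in aged ECs. The groups did not overlap, but the aged values spread more (SD 78.2 against 27.5 CPM in young), with the 136-week mouse highest. The log2 fold change was 0.62 (standard error 0.18, unadjusted p = 0.0103, adjusted p = 0.267), a 1.53-fold difference, and 0.46 without the 136-week mouse. An unadjusted p below 0.05 remained in all 6 fits without a mouse. The other fluid-phase regulators were low. Cfi, the protease that degrades C3b and C4b, had 4.80 ± 1.02 CPM in young and 6.28 ± 1.07 CPM in aged ECs, and C4bp, its cofactor, 1.55 ± 1.15 and 1.78 ± 0.417 CPM (SD, n = 3 per age), with adjusted p-values of 0.624 and 0.937.

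The membrane regulators include Cd59a and Cd55, the best expressed of all 32 genes, and had 4 of 4 tested genes below 0 and none at an unadjusted p below 0.05. Cd59a encodes CD59, which blocks C9 from joining the attack complex. Its CPM was 566, 506 and 731 in young and 549, 504 and 233 in aged ECs, of which the 136-week value stood apart (log2 fold change -0.49, standard error 0.33, adjusted p = 0.602). Cd55 encodes decay-accelerating factor, which breaks up C3 convertases, and had 651, 656 and 943 CPM in young and 817, 510 and 390 CPM in aged ECs. Its ages overlapped, and the 95% interval of its log2 fold change (-0.39) ran from -1.10 to 0.32. Cr1l, which encodes the rodent regulator Crry, had the most even values, at 157, 155 and 144 CPM in young and 124, 157 and 151 CPM in aged ECs. Its log2 fold change was -0.080, with a 95% interval from -0.42 to 0.26, and it changed sign without the 127-week mouse (0.023). Cd46, known from testis in the mouse, and Cd59b, a second CD59 gene, stayed at a mean of 0.283 and 0.229 FPKM. Of the 75-base stretches of Cd55, 6.76% also occur in Daf2, a copy of Cd55, and 1.66% of those of Cd59a occur in Cd59b.

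Of the receptors, Cd93 was well expressed and the 2 anaphylatoxin receptors were low. Cd93, an endothelial and myeloid surface lectin once described as a C1q receptor, had 493, 447 and 222 CPM in young and 169, 390 and 444 CPM in aged ECs. The 2 libraries with a small share of Lars2 and Rn45s counts, young mouse 3 and the 127-week mouse, were the lowest 2, and the ages overlapped (log2 fold change -0.21, standard error 0.42, unadjusted p = 0.626, adjusted p = 0.893). Within each class of this share the aged values lay below the young ones, and with a term for it the log2 fold change was -0.25 (unadjusted p = 0.0871, adjusted p = 0.358). The sign changed without young mouse 1 or the 127-week mouse. C5ar1 had 2.48 ± 1.50 CPM in young and 5.75 ± 5.05 CPM in aged ECs, and C3ar1 0.803 ± 0.497 and 1.71 ± 0.877 CPM (SD, n = 3 per age). Both were highest in the 136-week mouse, overlapped between ages and had adjusted p-values of 0.541 and 0.545.

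The 136-week mouse was the highest of the 6 in 11 of the 30 tested genes, among them C2, C3, Serping1, Clu, Cfb, C4b and Cfp. The share of all genes tested that were highest in it was not computed, so the count is no trait of complement genes. The summed leukocyte markers stood at 7.99 to 12.2 CPM in young mice and at 30.2 and 10.8 CPM in the 127- and 131-week mice. In the 136-week mouse they stood at 123 CPM, although CD45+ cells were to be left out by the sort. Ptprc, which encodes CD45, was at 25.6 CPM in that mouse and at 1.17 to 7.57 in the others. Without this mouse 4 genes were higher and 2 lower at an unadjusted p below 0.05, where 5.10% and 2.68% of all genes tested were, compared with 4 and 7 with it (8.32% and 4.32%). Leaving out any other single mouse gave 3 or 4 lower genes. The part of leukocyte RNA in these values was not tested.

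Differences were also computed within libraries of like Lars2 and Rn45s share, as the mean log2(CPM + 1) of aged minus young mice. Within the 4 libraries with a large share the difference was 1.70 for C2, 1.20 for C3, 0.94 for Serping1 and 0.61 for Clu, and between the 2 libraries with a small share it was 1.30, 1.35, 1.98 and 0.60. For C9, C8b, C8a and Hc it was -0.97, -0.78, -0.77 and -0.76 within the first set and -0.63, -1.11, -0.49 and -2.13 within the second, and for Masp1 and C1ra -0.64 and -0.45 against -0.36 and -0.11. The second set holds 1 mouse per age and allows no test. For all of these genes other than Serping1 the ages do not overlap, which fixes the direction within any subset, so only the sizes are informative. The exact permutation test of a single gene, two-sided, cannot go below p = 0.1 with 3 mice against 3. That p of 0.1 was reached by C2, C3, Clu, C9, C8b, C8a, Hc, C1ra, Masp1 and Masp2, and the p was 0.2 for Serping1 and Mbl1.

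Beyond the 32 genes, 24 further complement genes were listed (C1q chains, ficolins and collectins, complement receptors and others), of which 21 were tested. By edgeR, 4 were higher and 3 lower at an unadjusted p below 0.05, against 8.32% and 4.32% of all genes tested, and 0 passed after adjustment. DESeq2 called 2 higher and 1 lower at an adjusted p below 0.05, against 3.46% and 1.11% of its genes. C1qbp, a mitochondrial protein that binds C1q globular heads, had a mean of 46.6 FPKM, and 37.8 ± 2.81 CPM in young against 49.5 ± 7.73 CPM in aged ECs (adjusted p = 0.378). C5ar2, the second C5a receptor, had a mean of 42.6 FPKM, with 193 ± 49.2 CPM in young and 98.3 ± 45.4 CPM in aged ECs (unadjusted p = 0.0362, adjusted p = 0.368). The lectins Fcna (14.2 ± 5.38 CPM in young and 7.09 ± 3.27 CPM in aged ECs, unadjusted p = 0.0470) and Colec10 (8.12 ± 5.44 and 2.01 ± 1.13 CPM, unadjusted p = 0.0145) were lower. The integrin chains of complement receptor 3, Itgam (log2 fold change 3.43, unadjusted p = 0.0252) and Itgb2 (1.45, unadjusted p = 0.0419), were higher, with their highest values, 9.46 and 21.7 CPM, in the 136-week mouse.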

How the data were processed

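Liver ECs of 3 young and 3 aged mice were profiled by single-end 75-base RNA-seq. According to the study's methods and the submitters' processing notes, the authors called bases with CASAVA 1.8.2, mapped reads to mm9 with TopHat2 2.1.0 and deposited read counts per gene symbol, without normalization, together with FPKM values that the authors obtained with Cuffnorm 2.2.1. The counting program, its annotation and its strand setting are not given in the sources used here. Groups followed the ages in the labels.

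Genes with at least 0.5 CPM in at least 1 sample were kept. They were scaled with TMM and compared with the quasi-likelihood test of edgeR 4.0.16 (R 4.3.3), with Benjamini-Hochberg adjustment over all genes tested and a threshold of 0.05. Standard errors were derived from the fold change and the F statistic. No 2 replicates were alike enough to be one library deposited under 2 names (smallest chi-square per degree of freedom 20.2). DESeq2 1.42.0, limma 3.58.1 (voom, and log2 FPKM with a pseudocount of 0.1 or 1), other filters and scalings, a term for the Lars2 and Rn45s share and leaving out each mouse served as alternatives, and the fits were tried on simulated counts. FPKM served for comparing levels between genes. Genes were matched by symbol, with C1s through its RefSeq synonym. Positions are from the GENCODE annotation of mm9 and promoters from RefSeq (GRCm38.p6), and builds were not mixed. Members, gene lists, markers and the limit of 5 FPKM were chosen with earlier results of these data known. Named in full are well-expressed members, members with an unadjusted p below 0.05 or without overlap, and, of the further complement genes, those with such a p or among the 3 highest by FPKM, of which 1 gene is not reported here.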

Additional observations from a re-analysis of the deposited data

How the results depend on the processing

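The direction of C2, C3, Serping1, Clu, C9, C8b, C8a, Hc, Masp1 and C1ra was the same under every alternative run. For all of these other than Serping1 the ages do not overlap, so leaving out a mouse could hardly change the direction. Over single members and alternatives, 276 values kept both direction and side of the threshold, 5 passed it with DESeq2 and 3 changed sign. With DESeq2's Wald test 5 members passed an adjusted p of 0.05, where edgeR called 0, with log2 fold changes of 1.70 for C2, 1.45 for Serping1, 1.44 for C3, -1.98 for C9 and -2.13 for C8b. Cd93 changed sign without young mouse 1 (0.000122) and without the 127-week mouse (0.11), as did Cr1l without the 127-week mouse (0.023). Over all 6 removals Cd93 ran from -0.49 to 0.11 and Cr1l from -0.15 to 0.023. With library totals alone as the scaling, 4 members were lower at an unadjusted p below 0.05.

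The medians were the least stable values, and the cause was not tested. For the tested members the median was 0.31 with a filter of at least 1 CPM in 3 samples, which kept 24 of them, and -0.056 with limma-voom. For the low members it was 0.31 with that filter, -0.20 with no filter, -0.27 and -0.17 with limma after adding 0.1 or 1 to each FPKM, -0.98 and -0.22 with a limit of 2 or 10 FPKM for well-expressed genes, and -0.54 with a limit of 10 CPM. For the well-expressed members it was -0.080 with 10 FPKM and 0.62 with 10 CPM as the limit.

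Leaving out each mouse in turn gave 0 members past the adjusted threshold, 2 to 4 lower and 3 to 7 higher members at an unadjusted p below 0.05, and 7 to 11 lower and 3 to 8 higher members without overlap. The medians then ran from -0.19 to -0.036 for tested, from 0.031 to 0.40 for well-expressed and from -0.84 to -0.036 for low members. No paired analysis was possible because the labels number the young samples only. Depth limits C9, C8b, C8a, Masp2, Mbl1, Mbl2, C4a, Cd46, Cd59b and Cfd, each with under 10 counts in some mice.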

Other observations

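The C1q chains, which start the classical pathway and are known from macrophages, were chosen for display after their values were seen. C1qb had 28.8, 58.9 and 33.0 CPM in young and 23.1, 5.25 and 37.3 CPM in aged ECs, and C1qa and C1qc were likewise lowest in the 131-week mouse, at 1.36 and 2.26 CPM. Their edgeR adjusted p-values were 0.624, 0.971 and 0.996, and their ages overlapped. Vsig4, a complement receptor of Kupffer cells, was at 4.28, 3.57 and 5.77 CPM in young and 13.1, 1.24 and 24.7 CPM in aged ECs (adjusted p = 0.521), again lowest in the 131-week and highest in the 136-week mouse. The summed Kupffer cell and monocyte markers were also lowest and highest in these mice, and their part in these values was not tested.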
